A study of Bos taurus with 15 samples.

Results

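Basal keratinocytes of the newborn forestomach are described here from 7052 cell barcodes out of 172405 in the 15 libraries of a single-cell RNA sequencing atlas of cattle. A barcode was included when it came from the reticulum or omasum of newborn animals, held 500 to 4000 detected genes and under 50000 unique molecular identifiers (UMIs), and carried at least 1 UMI each of KRT14, KRT15 and DLK2 and none of MKI67. The rule found 2523 basal keratinocytes in the reticulum library and 4529 in the omasum library. These were 37.2% (exact binomial 95% interval 36.0 to 38.3) and 43.9% (43.0 to 44.9) of the barcodes with a KRT14 UMI, which numbered 6786 in the reticulum and 10309 in the omasum. The intervals given here, for shares and for levels, cover counting error only.

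The series compared newborn (NB) with adult (AD) Holstein dairy cattle across the digestive tract and other organs, with 11 newborn and 4 adult libraries among the samples used here. Each tissue and stage was 1 library, and the labels do not name the calf behind a library. For both forestomach libraries the outer muscle layers were cut away, and the mucosa was digested with EDTA, trypsin and then a mix of collagenases, hyaluronidase, dispase and DNase I. With 1 library per tissue no difference could be tested over animals, so every comparison below describes these libraries and carries no p-value.

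The reticulum and omasum are forestomach chambers lined by a stratified squamous epithelium. In such an epithelium the basal layer rests on the basement membrane, to which it is fixed by hemidesmosomes, and it supplies cells that move upward through the spinous and granular layers while changing their keratins and building a cornified barrier. NOTCH signalling between neighbouring cells is one of the controls of that step: ligands on 1 cell act on receptors of the next, and the DLK proteins are ligand relatives that lack the usual NOTCH-activating domain. KRT14 and KRT15 are keratins of the basal layer, and MKI67 marks cells in the division cycle.

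The label of basal keratinocyte was checked with COL17A1, the transmembrane collagen of the hemidesmosome, which the rule did not use. With every barcode thinned to 3000 UMIs, COL17A1 was detected in 97.0% of the basal keratinocytes of the reticulum and 96.1% of those of the omasum. The share was 81.4% and 72.9% in the other KRT14 barcodes. It was 17.3% and 25.9% in barcodes with 5 or more UMIs of endothelial markers, which should lack the gene. In barcodes with 5 or more UMIs of markers of any other cell type it was 72.8% and 72.2%. That wider set included 450 and 319 basal keratinocytes, and KRT14 was detected in 68.6% and 78.9% of it after thinning. Its share therefore does not measure COL17A1 in other cells alone. Without thinning the shares were 99.2% and 98.8% in basal keratinocytes, 86.7% and 82.1% in other KRT14 barcodes and 18.3% and 22.0% in the endothelial-marked barcodes. The median depth was 9034 and 8485 UMIs per basal keratinocyte, 10525 and 10639 per other KRT14 barcode and 3622.5 and 3583 per endothelial-marked barcode. Thinning left out 136 and 149 basal keratinocytes as too shallow, against 581 and 572 other KRT14 barcodes and 134 and 121 endothelial-marked ones. KRT5, the keratin partner of KRT14, had a level of 6922 counts per 1000000 UMIs (CPM) in the basal keratinocytes of the reticulum and 7843 CPM in those of the omasum, and ranked among the 10 most abundant genes of both, ribosomal protein and mitochondrial genes aside.

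The DLK2 count did most of the selecting. KRT15 was found in 98.2% and 98.9% of KRT14 barcodes, and 1920 of the 1923 MKI67-negative KRT14 barcodes outside the rule in the reticulum, and 3095 of 3099 in the omasum, had no DLK2 UMI. Of these, 1809 and 2992 had KRT15 and lacked DLK2 alone. Just inside the rule, 697 basal keratinocytes of the reticulum and 1040 of the omasum held a single DLK2 UMI, and 961 and 2276 held 4 or more, up to 29. DLK2 was detected, at any number of UMIs, in 6.28% and 11.8% of the endothelial-marked barcodes, a set from which KRT14 barcodes and doublets were not left out. Whether these UMIs came from free RNA or from doublets was not tested. The endothelial-marked barcodes held KRT14 in 47.1% and 57.0% and KRT15 in 70.2% and 79.0% of cases, so 1 UMI of either keratin does not set a cell type. The sets of KRT14 barcodes used as denominators and for comparison can therefore hold other cells. Of the KRT14 barcodes with MKI67, 49.1% and 52.1% also carried DLK2 and KRT15 and were kept out by MKI67 alone. A further 164 and 115 barcodes met the rule except that they held over 4000 genes. In the other 13 libraries the rule found no barcode, and only 17 of 113875 barcodes of the same size range had a KRT14 UMI. A count of 0 allows a share of up to 0.0229% to 0.111% of barcodes meeting the rule per library, which limits barcodes with these UMIs and not cells of this type.

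The reticulum and omasum libraries shared 42 barcode sequences, 3 of them among basal keratinocytes. A doublet score marked 4.76% of basal keratinocytes in the reticulum and 9.27% in the omasum, against 7.18% and 8.98% of the other KRT14 barcodes. Ribosomal protein genes took 34.4% and 38.4% of the UMIs of basal keratinocytes, against 26% and 30.8% in the other KRT14 barcodes. Mitochondrial transcripts took 5.84% and 5.51%, against 8.37% and 5.94%. Levels are shares of all UMIs. Against the other KRT14 barcodes the median gene stood 0.11 lower in basal keratinocytes of the reticulum and 0.13 lower in those of the omasum on the log2 scale, and the ratios below should be read against that shift.

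Levels were compared between basal keratinocytes and 3 sets of barcodes of the same library: all other KRT14 barcodes (4263 in the reticulum, 5780 in the omasum), the part of them with MKI67, called cycling KRT14 barcodes (2340 and 2681), and the part without it, called DLK2-negative barcodes (1923 and 3099). After thinning, DLK2 was detected in 65.6% and 73.1% of basal keratinocytes, so sampling alone can leave such a cell without a DLK2 UMI. The median depth was 6086 and 8436 UMIs per DLK2-negative barcode, against 9034 and 8485 per basal keratinocyte. COL17A1 was detected after thinning in 72.3% and 62.2% of DLK2-negative barcodes. How many DLK2-negative barcodes are basal keratinocytes with DLK2 missed was not tested. UMIs were summed over each set. A gene was called when its CPM differed at least 1.5-fold with 5 CPM added to both, its 95% Poisson intervals did not overlap and it reached 10 CPM in 1 of the sets. The barcodes were chosen by UMIs measured in the same libraries, so the calls are a description of the chosen barcodes, and KRT14, KRT15, DLK2 and MKI67 were left out of all counts.

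Against the other KRT14 barcodes, 126 of 6900 genes (1.83%) were higher and 419 (6.07%) lower in basal keratinocytes of the reticulum, and 173 of 6844 genes (2.53%) were higher and 609 (8.9%) lower in those of the omasum. Of 6554 genes measured in both tissues, 78 (1.19%) were higher in both, 351 (5.36%) were lower in both, and 0 were called in opposite directions. The 78 shared genes made up 61.9% of the genes higher in the reticulum and 45.1% of those higher in the omasum, and the 351 made up 83.8% and 57.6% of the lower ones. When libraries were scaled to the median gene in place of the total, the split moved to 261 higher and 346 lower in the reticulum and to 286 higher and 488 lower in the omasum. The 78 genes higher in both became 145 in this setting and 125 with a pseudocount of 1 CPM, so the 1.19% used below as the background for the lists depends on the scaling. Both levels in basal keratinocytes lay above both levels in the other KRT14 barcodes for 989 genes (15.1%) and below them for 2269 (34.6%).

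Against cycling barcodes, 259 genes (3.77%) were higher and 512 (7.45%) lower in the reticulum, and 193 (2.81%) and 740 (10.8%) in the omasum. In both tissues 121 (1.84%) were higher and 406 (6.19%) lower. Scaling to the median gene moved the split to 475 higher and 347 lower in the reticulum and to 361 higher and 508 lower in the omasum. Against DLK2-negative barcodes, 69 genes (1%) were higher and 373 (5.42%) lower in the reticulum, and 230 (3.4%) and 575 (8.5%) in the omasum. The 69 became 127 without barcodes with markers of other cell types, 131 with 5 or more KRT14 UMIs and 123 with a pseudocount of 1 CPM. Basal keratinocytes thus differed from either set in more genes downward than upward, except from cycling barcodes of the reticulum under the median scaling.

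Of the 78 genes higher in both tissues, 75 have a gene symbol, and only these were ranked. Among them the difference was largest for IL1R2, a decoy receptor that binds interleukin 1 without signalling. Its level was 205 CPM (199 to 211) in basal keratinocytes of the reticulum and 74.3 CPM in the other KRT14 barcodes, and 282 CPM (277 to 287) against 67.1 CPM in the omasum, log2 differences of 1.40 and 1.99. PDGFA, a growth factor ligand for mesenchymal cells, had levels of 81.8 and 105 CPM in basal keratinocytes against 32.9 and 47.1 CPM. PRODH, which starts the breakdown of proline, had levels of 114 and 95.1 CPM against 49.7 and 31.7 CPM. Among the rest of the 12 leading higher genes were SMOC2, an extracellular calcium-binding protein (log2 differences of 1.11 and 0.94), IGFBP5, a binding protein for insulin-like growth factors (0.96 and 1.24), P3H2, a collagen prolyl hydroxylase (0.95 and 1.18), and LAMB3. AOX1, an aldehyde oxidase, differed by 0.97 and 0.99, and PRKAR1B, a regulatory subunit of protein kinase A, by 0.93 and 0.91. CCDC3 had levels of 71.3 and 60.4 CPM against 28.2 and 28.6 CPM. The remaining 2 were DLK1 and DLL1, described with the NOTCH genes.

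**Figure D1:**
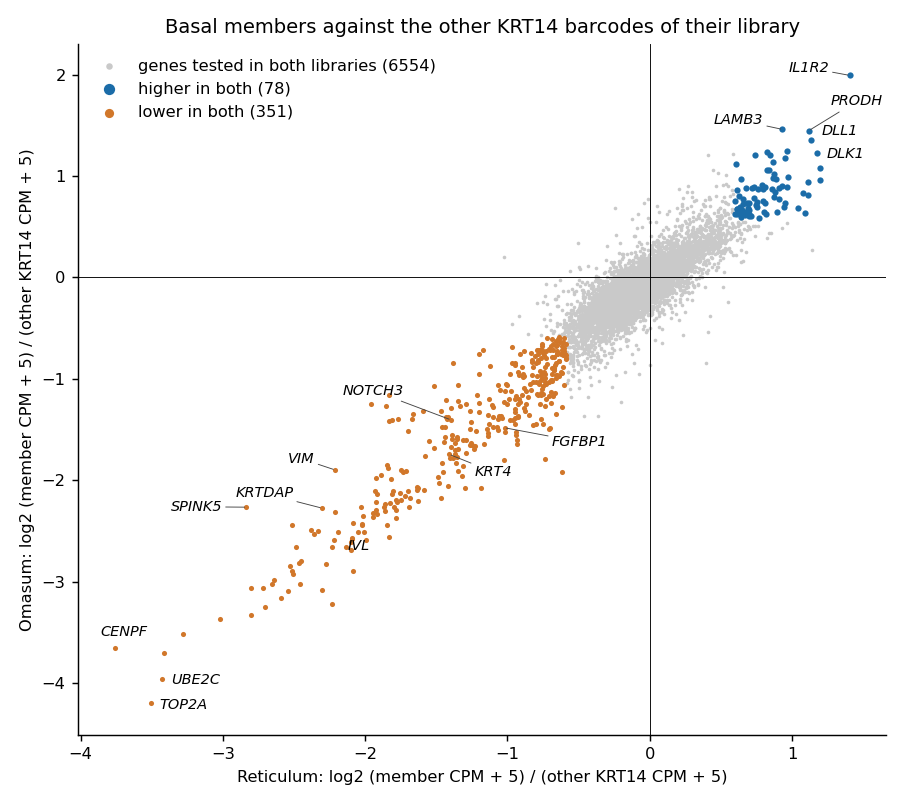
Log2 ratio of each gene's level (CPM plus 5) in basal keratinocytes, named members in the plot, to its level in the other KRT14 barcodes, with the reticulum on the x axis and the omasum on the y axis. Blue points are the 78 genes called higher and orange points the 351 called lower in both libraries, and no gene was called in opposite directions. Among genes with a symbol, TOP2A, CENPF and UBE2C of the mitotic cycle lie farthest to the lower left.

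Some genes of adhesion to the basement membrane were higher in basal keratinocytes. Of 17 hemidesmosome and basal adhesion genes measured in both tissues, 4 were higher and 0 lower in both against the other KRT14 barcodes, beside 1.19% and 5.36% of all genes. Against the DLK2-negative barcodes 5 were higher and 0 lower in both, where 1.05% of 6463 genes were higher and 4.22% lower. The median log2 difference of the list from DLK2-negative barcodes was 0.52 in the reticulum and 0.64 in the omasum, beside -0.04 for all genes in each library. COL17A1 had a level of 1778 CPM (1762 to 1795) in basal keratinocytes of the reticulum, 1165 CPM in cycling and 995 CPM in DLK2-negative barcodes. In the omasum its levels were 1664 (1651 to 1676), 1107 and 648 CPM. The order was thus the same in both tissues, and the Poisson intervals of the 3 sets were apart.

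LAMB3, a chain of laminin-332 that anchors hemidesmosomes, had a level of 76.7 CPM in basal keratinocytes of the reticulum and 28.1 CPM in DLK2-negative barcodes, and 123 against 32.6 CPM in the omasum. LAMA3, another chain of the same laminin, was higher than in the other KRT14 barcodes of both tissues (46.3 against 28.9 CPM and 62.3 against 35 CPM). The integrin chains ITGB4, of the hemidesmosome, and ITGA3, a laminin receptor, were higher than in DLK2-negative barcodes of both tissues: ITGB4 by 0.67 and 1.24 and ITGA3 by 1.06 and 1.48 on the log2 scale. ITGA6, the partner of ITGB4, passed the call in the omasum alone (138 against 73.7 CPM), with 153 against 105 CPM in the reticulum. CDH13, a cadherin without a cytoplasmic tail, had levels of 89.3 and 140 CPM in basal keratinocytes against 54.3 and 87.2 CPM in the other KRT14 barcodes. SDC1, a surface proteoglycan of keratinocytes, pointed the other way in the list, with 39.1 against 59.2 CPM in the reticulum (not called) and 32.5 against 61.9 CPM in the omasum (lower). CAV1, the coat protein of caveolae, was lower than in DLK2-negative barcodes of the reticulum (23.2 against 51.3 CPM) and higher than in cycling barcodes of both tissues (11.6 and 12.5 CPM, against 23.2 and 27.3 CPM in basal keratinocytes). In the first of these comparisons the summed endothelial markers stood at 10.1 against 174 CPM, and their part in the CAV1 difference was not tested.

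Of 10 basement membrane components measured in both tissues, COL18A1 and AGRN were higher and COL4A1 lower than in the other KRT14 barcodes of both. Over all genes 1.19% were higher and 5.36% lower. COL18A1, a collagen of epithelial basement membranes, had levels of 276 and 272 CPM in basal keratinocytes against 157 and 147 CPM. AGRN, a heparan sulfate proteoglycan, had levels of 50.0 and 59.9 CPM against 25.1 and 27.1 CPM. COL4A1 had low levels of 7.32 and 8.83 CPM against 20.8 and 23.8 CPM, and in cycling KRT14 barcodes it was as low, at 5.24 and 9.48 CPM. COL4A1 is also made by endothelial cells and fibroblasts, whose markers differed between the sets as described below. Against DLK2-negative barcodes 1 of 10 components was higher (COL18A1) and 1 lower (COL4A1) in both tissues, beside 1.05% and 4.22% of all genes. AGRN was thus not called in both there. The summed level of all 18 listed components was 559 and 673 CPM in basal keratinocytes against 612 and 495 CPM in DLK2-negative barcodes, so the tissues differed in direction.

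Among NOTCH ligands and their relatives, 2 of 4 measured genes were higher in basal keratinocytes than in the other KRT14 barcodes of both tissues, and 3 of 4 were higher than in DLK2-negative barcodes. Over all genes the shares higher in these comparisons were 1.19% and 1.05%. DLL1, an activating ligand, had a level of 42.5 CPM (40.0 to 45.2) in basal keratinocytes of the reticulum against 15.3 CPM in cycling and 19.7 CPM in DLK2-negative barcodes. In the omasum its levels were 79.2 CPM (76.5 to 81.9), 33.8 CPM and 20.7 CPM. JAG2, another activating ligand, had levels of 124 and 129 CPM against 70.5 and 40.6 CPM in DLK2-negative barcodes. DLK1, the closest relative of the selecting gene DLK2, had levels of 55.0 and 354 CPM against 29.2 and 104 CPM. JAG1 was not called in either tissue, with 66.3 and 97.2 CPM against 66.7 and 85.7 CPM.

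Of 6 genes of NOTCH receptors and modifiers measured in both tissues, 2 were higher (LFNG and RBPJ) and 1 was lower (NOTCH3) than in the other KRT14 barcodes of both. Over all genes 1.19% were higher and 5.36% lower. The summed level of all 17 was 290 and 358 CPM against 249 and 301 CPM. NOTCH3 was lower in basal keratinocytes than in each of the other sets: 6.53 CPM (5.57 to 7.61) against 21.9 CPM in cycling and 32.6 CPM in DLK2-negative barcodes of the reticulum, and 18.5 CPM (17.2 to 19.9) against 44.2 and 73.1 CPM in the omasum. NOTCH1 had levels of 5.94 and 5.95 CPM against 10.2 and 11.9 CPM in DLK2-negative barcodes, a difference called in the omasum alone. LFNG, a glycosyltransferase that tunes how NOTCH answers its ligands, was higher in basal keratinocytes (59.2 and 71.8 CPM against 31.3 and 17.6 CPM). RBPJ, the DNA-binding factor of the pathway, had levels of 62.8 and 70.5 CPM against 38.3 and 43.7 CPM in the other KRT14 barcodes. Against DLK2-negative barcodes, and against cycling ones, RBPJ was not called in both tissues, and LFNG alone of the list was higher in both. HES1, the 1 NOTCH target gene measured at 10 CPM or more in both tissues, was lower in basal keratinocytes of the omasum, with 201 CPM (197 to 205) against 331 CPM in the other KRT14 barcodes. In the reticulum it was not called, with 170 CPM (165 to 176) against 181 CPM.

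Of 11 genes of the WNT pathway measured in both tissues, 3 were higher and 0 lower than in the other KRT14 barcodes of both, beside 1.19% and 5.36% of all genes. The ligand WNT10A had levels of 68.5 and 114 CPM in basal keratinocytes against 35.8 and 46.6 CPM, and the ligand WNT6 had 34.1 and 33.5 CPM against 18.4 and 11.7 CPM. DKK3, a secreted relative of the Dickkopf WNT inhibitors, had levels of 57.9 and 67.9 CPM against 30.6 and 26 CPM. Against DLK2-negative barcodes the ligand WNT3A was called as well, at 30.2 and 28.8 CPM against 14.8 and 11.7 CPM. SFRP1, a secreted WNT antagonist, was called in the omasum alone in that comparison (59.0 against 29.9 CPM), with 128 against 84.5 CPM in the reticulum. LGR6, an R-spondin receptor of epithelial stem cells, had low levels of 14.1 and 23.1 CPM and was higher than in the other KRT14 barcodes, at 6.31 and 11.8 CPM. Against DLK2-negative barcodes LGR6 was not called in both tissues.

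Among other growth factor genes, NRG1, a ligand of the ERBB receptors, was higher than in DLK2-negative barcodes of both tissues (20.2 and 13.8 CPM against 11.1 and 4.93 CPM). FGFR2, the receptor for keratinocyte growth factor, had levels of 124 and 140 CPM in basal keratinocytes against 66.4 and 74.5 CPM in the other KRT14 barcodes. FGFBP1, a carrier of fibroblast growth factors, was lower (84.5 and 10.6 CPM against 176 and 38.6 CPM), as was the receptor ERBB3 (14.1 and 21.2 CPM against 23.8 and 39.4 CPM). EGFR passed the call in neither tissue, with 13.9 and 15.6 CPM against 8.99 and 11 CPM. Of 10 genes of the IGF pathway, IGFBP5 was higher and IGFBP7 lower in both tissues, beside 1.19% and 5.36% of all genes. Against DLK2-negative barcodes IGFBP2 and IGFBP6 joined the higher ones and IGF2 the lower ones, beside 1.05% and 4.22% of all genes. There IGFBP6 had 929 and 751 CPM against 465 and 292 CPM, and the ligand IGF2 had 72.3 and 24.5 CPM against 154 and 60.4 CPM. Of 11 genes of the BMP and TGF-beta pathway, 0 were called in the same direction in both tissues against the other KRT14 barcodes. Against cycling barcodes alone, the latent TGF-beta binding protein LTBP1 was higher in both tissues (17.5 and 32.6 CPM against 7.86 and 17.0 CPM). In the omasum FST, TGFB1, LTBP1 and LTBP2 were higher than in the other KRT14 barcodes, with FST, an activin inhibitor, at 18.7 against 8.72 CPM. The ligand BMP2 was lower in the reticulum (19 against 32.2 CPM), and in the omasum it had 17.0 against 17.3 CPM, where it was not called.

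Of the list of basal and stem cell factors, 16 genes were measured in both tissues and 1, the receptor LGR6, was higher than in the other KRT14 barcodes of both, beside 1.19% of all genes. TP63, the factor on which stratified epithelia depend, had levels of 53.7 and 54.5 CPM in basal keratinocytes against 43.3 and 35.8 CPM, not called in either tissue, and it was called higher than in DLK2-negative barcodes of the omasum (32.8 CPM). SOX4 was higher than in the other KRT14 barcodes of the reticulum (60.6 against 36.4 CPM) and not called in the omasum (45.0 against 31.1 CPM). ID2 was lower in the reticulum (58.0 against 98.9 CPM) and not called in the omasum (72.8 against 88.2 CPM). ID1 was lower in the reticulum (259 against 453 CPM) and not called in the omasum (238 against 285 CPM). PITX1 was lower in the omasum (417 against 647 CPM) and not called in the reticulum (315 against 406 CPM). Against DLK2-negative barcodes 0 of 16 genes of this list, LGR6 included, were higher in both tissues and 0 were lower in both. Over all genes 1.05% were higher and 4.22% lower there. The summed level of the list was 1655 and 1937 CPM in basal keratinocytes. It was 1994 and 2267 CPM in the other KRT14 barcodes and 1878 and 2234 CPM in DLK2-negative ones.

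**Figure D2:**
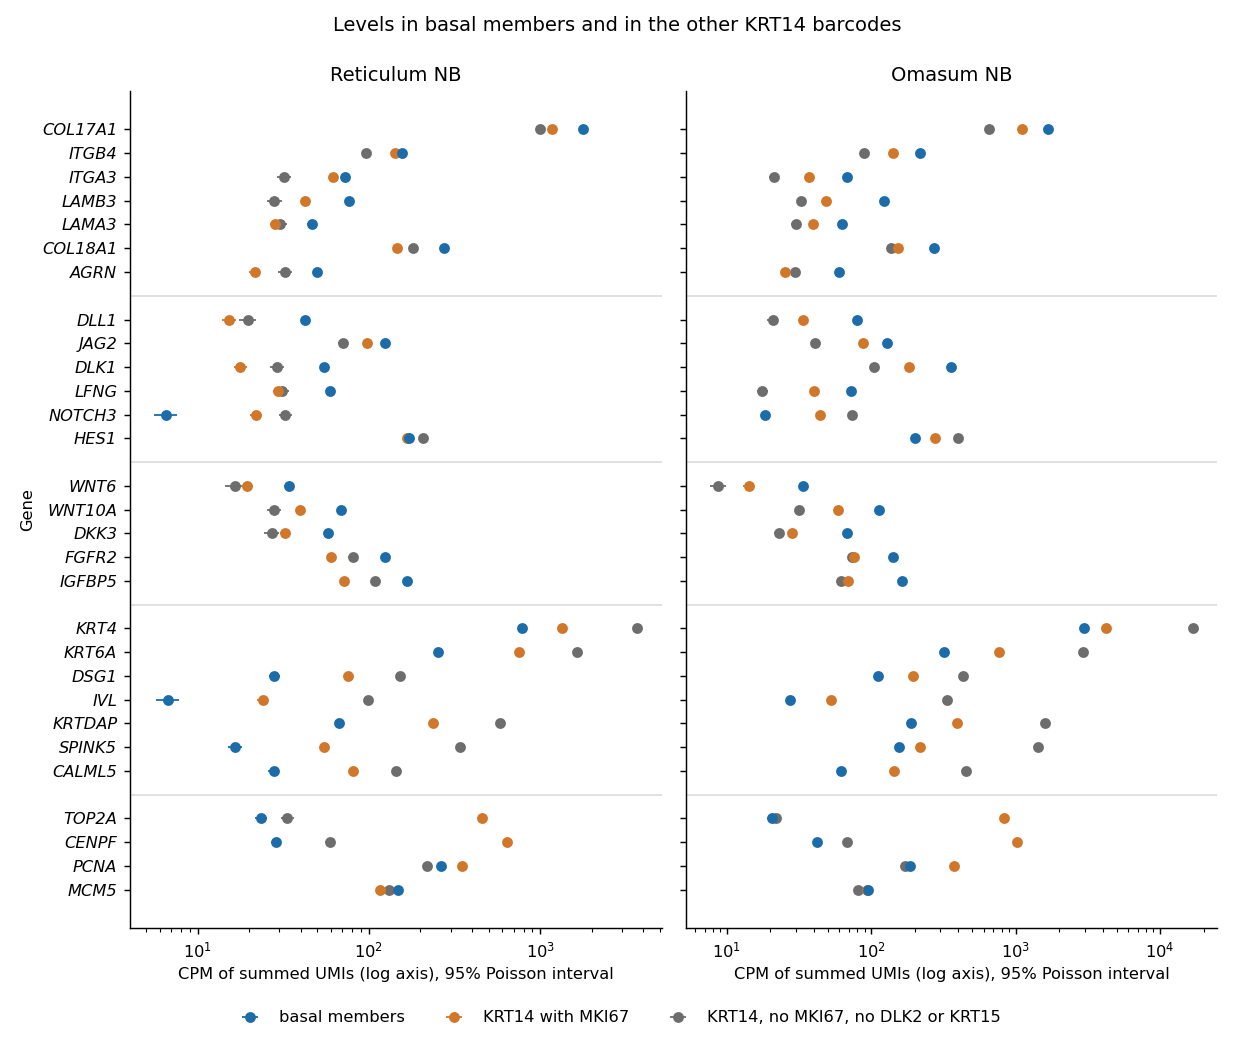
Level of selected genes (CPM of summed UMIs, log axis, bars are 95% Poisson intervals and often lie within the points) in basal keratinocytes (blue), KRT14 barcodes with MKI67 (orange) and MKI67-negative KRT14 barcodes that lack DLK2 or KRT15 (grey), with a panel for each library. COL17A1 is highest in basal keratinocytes at 1778 and 1664 CPM, and KRT4, IVL and SPINK5 are lowest there.

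Among the lists used here, those of the upper layers held the most lower genes outside the cell cycle. Of 16 suprabasal keratins and desmosome genes measured in both tissues, 9 were lower and 0 higher than in the other KRT14 barcodes, and 10 were lower than in DLK2-negative barcodes. Over all genes the shares lower in these comparisons were 5.36% and 4.22%. KRT4, a keratin of the suprabasal layers of wet stratified epithelia, had a level of 787 CPM (776 to 798) in basal keratinocytes of the reticulum, 1337 CPM in cycling and 3670 CPM in DLK2-negative barcodes. In the omasum its levels were 2961 (2944 to 2977), 4234 and 16933 CPM. KRT6A had levels of 254 and 317 CPM in basal keratinocytes against 1651 and 2946 CPM in DLK2-negative barcodes, KRT17 849 and 714 CPM against 2784 and 4648 CPM, and the desmosomal cadherin DSG1 28.1 and 112 CPM against 151 and 433 CPM. Reads of keratin paralogs such as KRT6A and KRT6B can be hard to tell apart, and their split between the genes is uncertain. DSG3, a desmosomal cadherin of the lower layers, was not called in either tissue (192 and 259 CPM against 284 and 371 CPM), nor was DSG2.

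Of 21 genes of the granule and cornified layer measured in both tissues, 14 were lower and 0 higher than in the other KRT14 barcodes, beside 5.36% and 1.19% of all genes. Against DLK2-negative barcodes 15 of 22 were lower, beside 4.22% of all genes. There the median log2 difference of the list was -1.51 in the reticulum and -1.69 in the omasum. SPINK5, a protease inhibitor of the barrier, had levels of 16.5 and 154 CPM in basal keratinocytes against 342 and 1427 CPM, log2 differences of -4.01 and -3.17. Involucrin (IVL), a precursor of the cornified envelope, had 6.73 and 27.2 CPM against 99.2 and 334 CPM. KRTDAP had 66.6 and 187 CPM against 580 and 1584 CPM, and TGM1, which cross-links the envelope, 23.6 and 18.8 CPM against 169 and 159 CPM. The differentiation factors GRHL1, GRHL3, ZNF750 and OVOL1 were all lower in both tissues, ZNF750 by 1.71 and 2.63 on the log2 scale. S100A12, an abundant calcium-binding protein, was lower but stayed among the most abundant transcripts, at 5957 and 5553 CPM against 12121 and 16861 CPM.

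**Figure D3:**
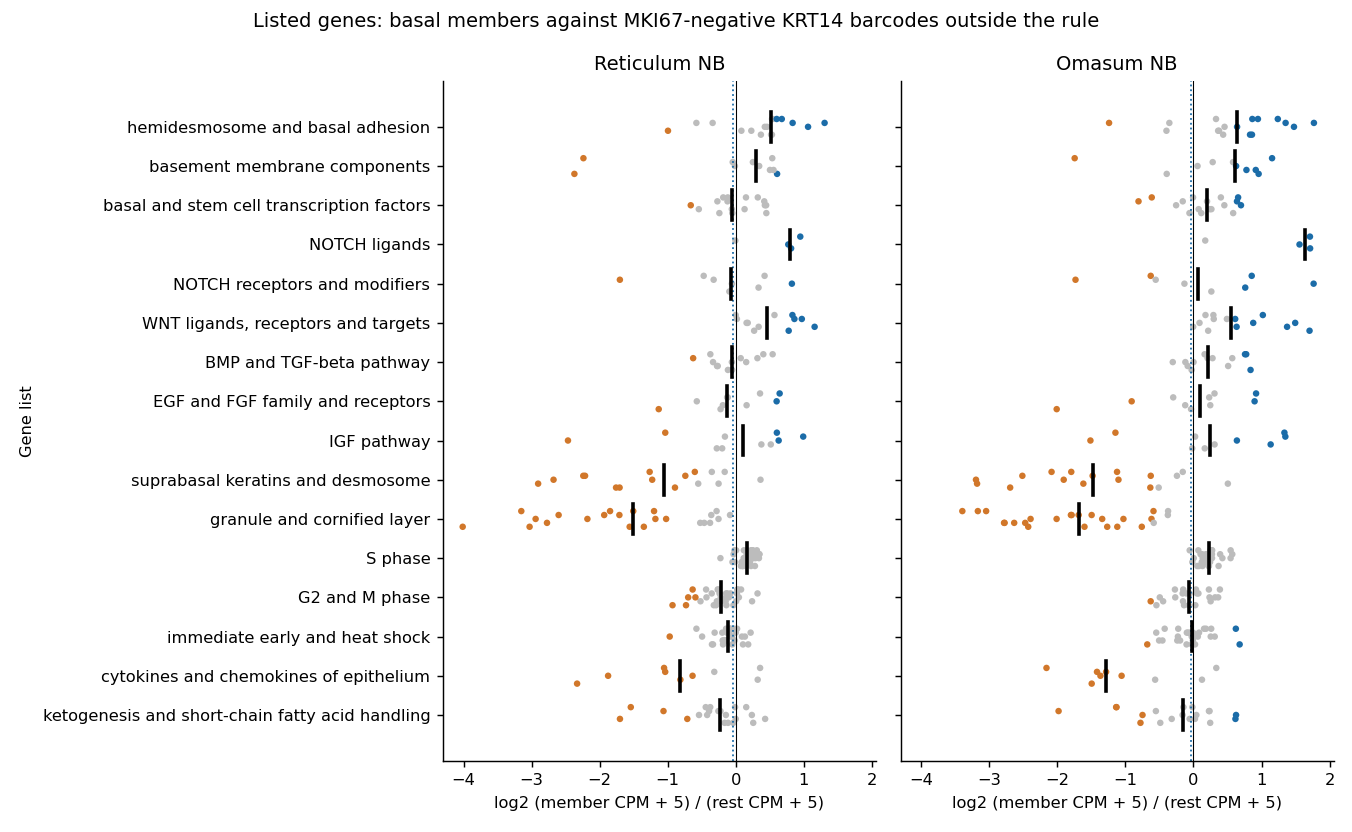
Log2 ratio of the level in basal keratinocytes to that in MKI67-negative KRT14 barcodes outside the rule (rest) for each listed gene that reached 10 CPM, by gene list, with a panel for each library. Blue and orange points were called higher and lower, grey points were not called, black bars are list medians and the dotted line is the median of all genes, -0.04 in each library. The suprabasal and granule lists lie to the left, and the hemidesmosome and NOTCH ligand lists to the right.

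Genes of the G2 and M phases were lower than in the other KRT14 barcodes, 45 of 47 in both tissues, which the choice of MKI67-negative barcodes builds in. Of the 351 genes lower in both tissues, 332 have a symbol and were ranked. The 12 leading ones were TOP2A, CENPF, UBE2C, ASPM, CDC20, CDCA3, TPX2, CCNB1, NUSAP1, CENPE and KIF23, which act in cell division, and MXD3, a transcription factor of the MAX network. TOP2A, which untangles replicated DNA, had levels of 23.4 and 20.4 CPM in basal keratinocytes against 318 and 463 CPM. Against DLK2-negative barcodes, which lack MKI67 too, 1 of 23 G2 and M genes was lower in both tissues (CENPF, 28.7 and 42.2 CPM against 59.3 and 68.0 CPM), beside 4.22% of all genes. TOP2A had 33.4 and 21.7 CPM in those barcodes. In the reticulum alone UBE2C (13.1 against 24.3 CPM), CDCA3 (6.05 against 13.4 CPM) and CDC20 (6.21 against 12.4 CPM) were also lower.

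S phase genes were present in basal keratinocytes. Their summed level was 2501 CPM over 43 genes in the reticulum and 1840 CPM in the omasum, against 2969 and 3041 CPM in cycling and 2165 and 1567 CPM in DLK2-negative barcodes. In the latter comparison 0 of 34 genes measured in both tissues was called in the same direction in both, and the list median was 0.17 and 0.22. Against all other KRT14 barcodes 1 of 40 was higher and 4 were lower in both tissues (RRM2, RAD51AP1, CDC45 and E2F8), beside 1.19% and 5.36% of all genes. The higher gene was CDCA7, with 51.2 and 40.3 CPM in basal keratinocytes against 31.0 and 24.1 CPM. PCNA, the clamp of the replication fork, was detected in 42.6% and 31.8% of basal keratinocytes after thinning. The share was 53.3% and 54.1% in cycling and 38.6% and 29.3% in DLK2-negative barcodes. It was also detected in 24.6% and 31.1% of the endothelial-marked barcodes, which can express PCNA themselves, so that this share is no measure of free RNA. Unthinned shares were 66.2% and 52.8% in basal keratinocytes, 82.5% and 78.6% in cycling, 48.4% and 44.6% in DLK2-negative and 30.9% and 33.8% in endothelial-marked barcodes.

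Of 18 CDK inhibitors and G1 regulators measured in both tissues, 1 was higher and 2 were lower than in the other KRT14 barcodes of both. Over all genes 1.19% were higher and 5.36% lower there. The higher gene was the cyclin CCND2 (150 and 166 CPM against 87.5 and 99 CPM). Against DLK2-negative barcodes 0 of 17 were higher in both tissues, so CCND2 was not called in both there, and 1 was lower, beside 1.05% and 4.22% of all genes. The CDK inhibitors CDKN2C and CDKN2D were lower than in the other KRT14 barcodes (CDKN2C 6.77 and 10.5 CPM against 25.8 and 40.4 CPM) but not than in DLK2-negative barcodes, where CDKN2C stood at 7.39 and 9.76 CPM. CCND1 was lower than in DLK2-negative barcodes of both tissues (46.9 and 25.8 CPM against 95.7 and 79.2 CPM).

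Of 28 immediate early and heat shock genes, 1 was lower than in the other KRT14 barcodes of both tissues and 0 were higher, near the 5.36% and 1.19% of all genes. The lower one was the endoplasmic reticulum chaperone HSPA5 (486 and 140 CPM against 783 and 233 CPM). Dissociation-sensitive genes such as FOS (824 and 1278 CPM against 742 and 1173 CPM) and JUN (2051 and 2251 CPM against 1914 and 2210 CPM) were not called. Against DLK2-negative barcodes 5 of 8 epithelial cytokine genes were lower in both tissues, beside 4.22% of all genes: CXCL14, CXCL3, CXCL16, CCL2 and TNFSF10. Against the other KRT14 barcodes 1 of 6 was lower in both, CCL2. CXCL3 was higher than in cycling barcodes of both tissues (129 and 21.3 CPM against 49.1 and 12.3 CPM). CXCL14 had levels of 92.2 and 108 CPM in basal keratinocytes against 197 and 499 CPM.

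In the list of ketogenesis and short-chain fatty acid handling, functions of the mature forestomach wall, 4 of 19 genes were lower and 0 higher than in the other KRT14 barcodes of both tissues. Over all genes 5.36% were lower and 1.19% higher. FABP5, a fatty acid carrier of keratinocytes, had levels of 926 and 778 CPM in basal keratinocytes against 2657 and 2511 CPM. HMGCS1, which feeds the mevalonate pathway, had 121 and 44.5 CPM against 233 and 91.3 CPM, and the ketone body dehydrogenase BDH1 15.7 and 13.3 CPM against 33.9 and 25.9 CPM. None of the 13 mitochondrial transcripts was called in both tissues, and in the reticulum 3 were lower.

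Markers of other cell types differed between the sets. Of 5 fibroblast genes measured in both tissues, 4 were lower than in DLK2-negative barcodes (COL1A1, COL1A2, COL3A1 and LUM), as were all 4 endothelial genes measured (PECAM1, VWF, CLDN5 and EMCN). Over all genes 4.22% were lower there. The summed level of 8 endothelial markers was 10.1 and 16.2 CPM in basal keratinocytes, 8.18 and 9.77 CPM in cycling and 174 and 124 CPM in DLK2-negative barcodes. That of 8 fibroblast markers was 242 and 130 CPM, 62.5 and 71.4 CPM, and 461 and 308 CPM. PDGFRB was at 0 in basal keratinocytes of both tissues, and COL1A1 stood at 4.19 and 4.95 CPM against 65.4 and 38.7 CPM in DLK2-negative barcodes. DCN, a matrix proteoglycan counted as a fibroblast marker, made up most of the summed level, with 226 CPM (220 to 232) and 103 CPM (100.0 to 106) in basal keratinocytes against 53.6 and 48.8 CPM in cycling barcodes. Its level did not move with the collagens, and it was higher than in the other KRT14 barcodes of the reticulum.

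The smooth muscle and pericyte list summed to 5.42 and 4.15 CPM in basal keratinocytes and to 114 and 37.3 CPM in DLK2-negative barcodes. The immune, glial and melanocyte, and red cell lists summed to between 3.05 and 7.68 CPM in basal keratinocytes, with PTPRC at 0 in the reticulum and MLANA and TYR at 0 in both. The simple epithelium list summed to 158 and 52.4 CPM, most of it KRT19, and TFF1, TFF2, CLDN18 and GKN1 were at 0. In all, 17.8% of basal keratinocytes in the reticulum and 7.04% in the omasum held 5 or more UMIs of markers of other cell types, against 12.2% and 10.3% of the other KRT14 barcodes. These markers include DCN, which alone held 226 of the 242 CPM of the fibroblast list in the reticulum, so the share cannot be read as a share of other cells. Within these, the share was 20.5% and 15.2% of DLK2-negative and 5.34% and 4.55% of cycling barcodes. VIM, COL4A1 and IGFBP7, which were lower in basal keratinocytes, and CAV1, IGF2 and CCL2, which were lower than in DLK2-negative barcodes (CAV1 in the reticulum alone), moved with the endothelial, smooth muscle and collagen markers, and the part of other cells in their differences was not tested. Where only barcodes with 5 or more KRT14 UMIs were compared, the log2 difference of VIM went from -2.21 and -1.90 to 0.056 and 0.074.

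Levels were also read by the number of DLK2 UMIs. Among MKI67-negative barcodes with KRT14 and KRT15, COL17A1 in the omasum went from 659 CPM in barcodes with no DLK2 UMI through 1373, 1619 and 1683 CPM at 1, 2 and 3 UMIs to 1789 CPM at 4 or more. In the reticulum the same steps were 1026, 1614, 1778, 1897 and 1831 CPM, so the highest 2 classes were in the reverse order there. DLL1 went up at every step, from 19.2 to 52.0 CPM in the reticulum and from 20.8 to 94.6 CPM in the omasum. LAMB3 went up at every step as well, from 28.9 to 83.2 CPM and from 33.2 to 142 CPM. The Poisson intervals of neighbouring classes overlapped at several of these steps, which therefore lie within counting error. In the reticulum LAMB3 had 77.6, 79.5 and 83.2 CPM at 2, 3 and 4 or more UMIs, and DLL1 had 31.4 and 33.8 CPM at 1 and 2 UMIs, with overlapping intervals.

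Several upper-layer genes ran the other way. KRTDAP had 570 CPM with no DLK2 UMI, 178 CPM with 1, 43.1 CPM with 2, 30.1 CPM with 3 and 27.4 CPM with 4 or more in the reticulum, and 1560, 556, 134, 88.9 and 73.3 CPM in the omasum. SBSN, a protein of the upper layers, had 49.0, 10.3, 1.24, 0.28 and 0.18 CPM in the same classes of the reticulum and 90.5, 47.8, 4.34, 2.32 and 3.55 CPM in the omasum. KRT4 had 3688, 1246, 587, 771 and 626 CPM in the reticulum, so it did not go down at every step there, and 16777, 6403, 2538, 1997 and 1884 CPM in the omasum. Basal keratinocytes with a single DLK2 UMI thus carried more of these 3 transcripts than those with 2. LY6D of the granule list had no steady order in the reticulum, with 1403, 1090, 1331, 1147 and 1469 CPM in the 5 classes. NOTCH3 had 9.95 and 28.6 CPM at 1 UMI and 4.24 and 15 CPM at 4 or more, while TP63 stayed between 50.4 and 59.3 CPM and between 50.0 and 56.9 CPM over the classes with DLK2. Depth differed between the classes. Median UMIs went from 6499 with no DLK2 UMI to 10304 at 4 or more in the reticulum, while in the omasum they were 8640.5 with none, 7650 at 1 and 8985 at 4 or more. The part of depth in the steps was not tested.

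**Figure D4:**
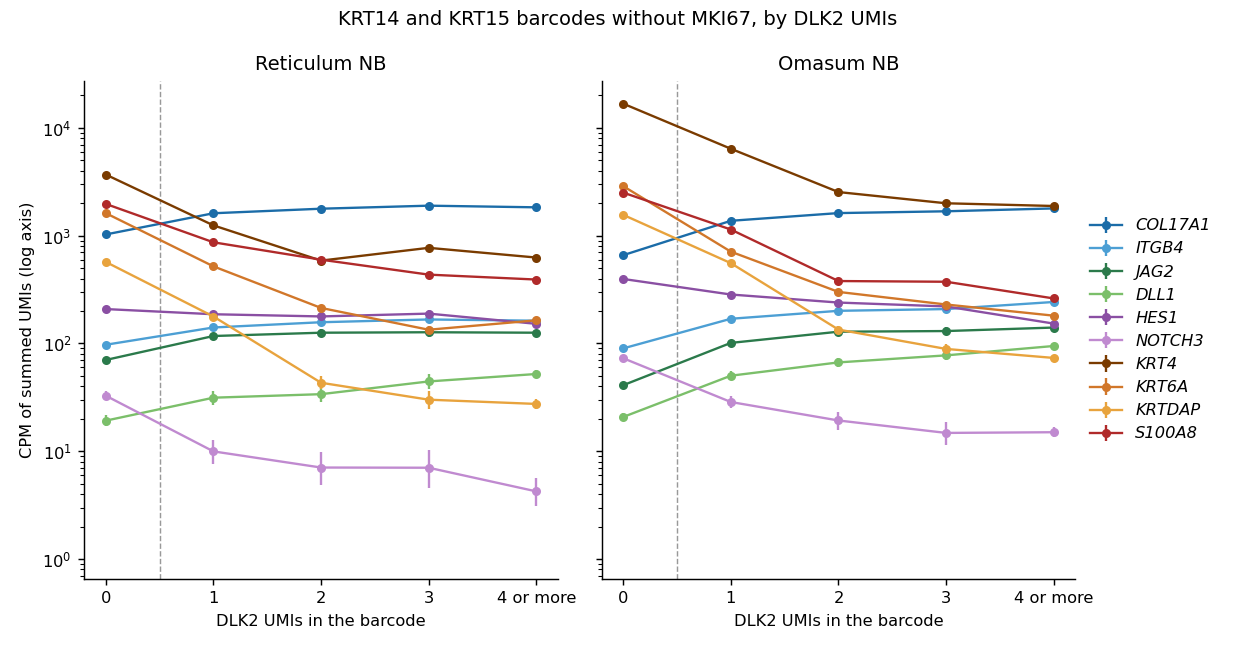
Level (CPM of summed UMIs, log axis, bars are 95% Poisson intervals) of 10 genes in MKI67-negative barcodes with KRT14 and KRT15, by the number of DLK2 UMIs, with a panel for each library. Classes to the right of the dashed line are basal keratinocytes. Between no DLK2 UMI and 4 or more, COL17A1 and DLL1 run upward, and KRT4, KRT6A, KRTDAP, S100A8 and NOTCH3 downward, with KRTDAP going from 570 to 27.4 CPM in the reticulum. Not every step follows. In the reticulum KRT4 rises from 587 to 771 CPM at 3 UMIs. At the last step there COL17A1 falls from 1897 to 1831 CPM and KRT6A rises from 134 to 164 CPM.

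The spread among basal keratinocytes was measured gene by gene. After thinning to 3000 UMIs the median variance-to-mean ratio over 5926 genes was 1.03 in the reticulum and 1.02 in the omasum, close to the value of counting noise. Genes without a symbol and the genes used by the rule were not ranked. Among the others, the 10 most variable in both tissues were S100A12, KRT4, CLEC3B, KRT17, KRT6A, VIM, S100A7, COX1, S100A2 and S100A8. KRT4 had a ratio of 13.2 in the reticulum and 61.0 in the omasum at means of 2.27 and 7.03 UMIs per barcode. CLEC3B, a plasminogen-binding protein, had ratios of 12.6 and 11.1 at means of only 0.0482 and 0.0514 UMIs, so that a few barcodes held most of its UMIs, and VIM was of the same kind (11.7 and 7.24). Of the basal markers, KRT5 had ratios of 4.58 and 5.04 at means of 20.7 and 23.5 UMIs, COL17A1 2.96 and 2.30, ITGB4 1.11 and 1.14, and LAMB3 1.09 and 1.16. The ratio depends on the mean level, which differed between these genes and changes with the depth of thinning, so the ratios hold for 3000 UMIs only.

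Shannon entropy of the UMIs over genes, a measure of how evenly a cell spreads its transcripts, was 8.84 ± 0.338 bits (SD over 2387 barcodes) in basal keratinocytes of the reticulum and 8.90 ± 0.657 bits in 3682 other KRT14 barcodes. In the omasum it was 8.74 ± 0.197 bits over 4380 basal keratinocytes and 8.95 ± 0.277 bits over 5208 others. Cycling barcodes had 8.99 and 9.07 bits, and DLK2-negative barcodes 8.76 and 8.83 bits, which is below the basal keratinocytes in the reticulum and above them in the omasum. These values are means, and the medians gave another order in the reticulum. There the medians were 8.86 bits in basal keratinocytes, 8.92 bits in DLK2-negative and 9.06 bits in all other KRT14 barcodes. In the omasum they were 8.74, 8.83 and 8.96 bits, so on the median DLK2-negative barcodes lay above basal keratinocytes in both tissues. The difference of -0.06 bits between the means of basal keratinocytes and other KRT14 barcodes of the reticulum, smaller than that between their medians, was below the SD among basal keratinocytes. It became 0.0373 bits without mitochondrial and ribosomal protein genes, so its direction turned. It was -0.127 bits among barcodes of 5000 to 20000 UMIs, -0.120 bits with no upper limit on genes, -0.106 bits with 5 or more KRT14 UMIs and -0.094 bits under 40% mitochondrial UMIs. It was -0.0308 bits with 2 or more UMIs of KRT15 and DLK2, -0.0275 bits without barcodes with markers of other cell types and -0.019 bits after thinning to 1000 UMIs. In the omasum the difference of -0.20 bits became -0.0789 bits without mitochondrial and ribosomal protein genes and lay between -0.225 and -0.155 bits in the other settings. The ribosomal and mitochondrial shares of the UMIs differed between the sets, as given above.

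Basal keratinocytes of the 2 tissues were compared over 6693 genes, of which 446 (6.66%) were higher in the reticulum and 168 (2.51%) higher in the omasum. Tissue, library and perhaps animal change together here and cannot be told apart. In the reticulum LY6D, a surface protein of stratified epithelia, had 1307 CPM against 239 CPM, and the chemokines GRO1 and CXCL3 had 66.8 and 129 CPM against 7.25 and 21.3 CPM. Near-identical chemokine genes can share reads, so their separate levels are uncertain. S100A7, CRYAB, a small heat shock protein, TNFRSF6B, a decoy receptor, and M-SAA3, an acute phase protein of mucosa, were higher there as well, with log2 differences between 2.00 and 2.41. FABP4, a fatty acid carrier, stood at 25.6 CPM in the reticulum and at 1.02 CPM in the omasum, and FGFBP1 at 84.5 and 10.6 CPM.

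In the omasum DLK1 had 354 CPM against 55.0 CPM in the reticulum. SPINK5 (154 against 16.5 CPM), KRT4 (2961 against 787 CPM), DSG1 (112 against 28.1 CPM) and CNFN, a cornified envelope protein (27.2 against 0.59 CPM), were upper-layer genes with higher levels in the omasum. Within each library the same 4 genes were called lower than in the other KRT14 barcodes, apart from CNFN in the reticulum, where it stood at 0.59 against 1.59 CPM. With 5 or more KRT14 UMIs the log2 difference of CNFN in the omasum turned from -0.81 to 0.41. UACA (283 against 86.7 CPM), SPARC (108 against 29.8 CPM), RBP4 (37.9 against 8.75 CPM), GPNMB (19.7 against 2.85 CPM) and NDUFA4L2 (17.9 against 2.65 CPM) completed the 10 leading genes with a symbol. GPNMB was also higher in basal keratinocytes than in the other KRT14 barcodes of the omasum (5.07 CPM) but not of the reticulum (2.41 CPM). Levels of COL17A1 (1778 and 1664 CPM), KRT5, TP63 and JAG2 were not called between the tissues. Other genes of the same lists were called: LAMB3 (76.7 and 123 CPM) and DLL1 (42.5 and 79.2 CPM) were higher in the omasum, as was DLK1.

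**Figure D5:**
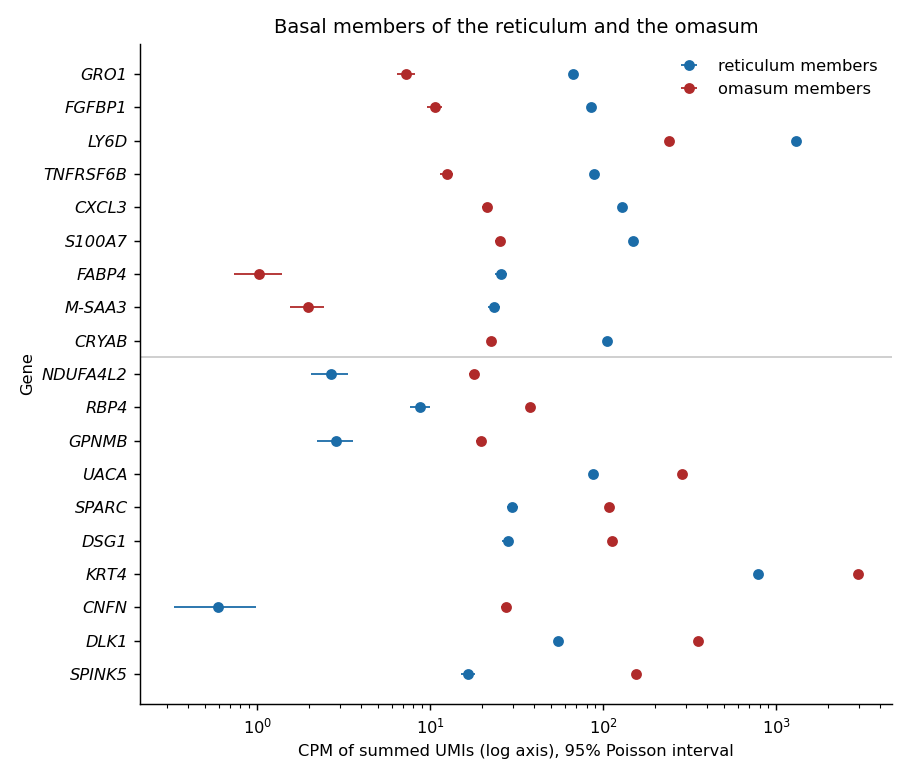
Level (CPM of summed UMIs, log axis, bars are 95% Poisson intervals) in basal keratinocytes of the reticulum (blue) and the omasum (red) for the named genes with the largest log2 differences in each direction. The intervals do not overlap for any gene shown, with LY6D at 1307 and 239 CPM and DLK1 at 55.0 and 354 CPM.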

How the data were processed

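Gene by barcode matrices of UMI counts for 15 cattle libraries were used as deposited. The authors made them with 10x Genomics 3' chemistry and Cell Ranger 3.1.0 against the ARS-UCD1.2 bovine genome. These counts are whole numbers, not normalized, for 27270 genes, and strand handling is not given in the sources used here. The authors removed doublets with DoubletFinder in their own analysis, and whether the deposited matrices precede that step is not stated. The matrices do hold barcodes outside the authors' limits on genes and UMIs, so they are not the authors' filtered cells. In the reticulum 7512 of 12858 barcodes lie within 500 to 4000 genes and under 50000 UMIs. Totals were 125527022 UMIs in the reticulum and 129458578 in the omasum library. Members and gene lists were chosen with earlier results of these data known.

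UMIs were summed over each set of barcodes, scaled to counts per 1000000 (CPM) and compared as log2 ratios with 5 CPM added. Calls needed a 1.5-fold difference, exact 95% Poisson intervals apart and 10 CPM in 1 set. Shares have exact Clopper-Pearson intervals, and a count of 0 was read as up to 3. PCR copies were collapsed by UMI, and intervals cover counting error only. No statistical test was run, since each group is 1 library and barcodes are not replicates. The script that makes the calls was tested on simulated data. Barcodes were thinned to 3000 UMIs for shares, variance and entropy. Doublets were scored by a nearest-neighbour method after simulated pairs (2 per barcode, 2000 genes, 30 components) and kept in the main values. The share marked was preset at 0.8% per 1000 barcodes. Barcodes with 5 or more endothelial UMIs, a set defined after the data were seen, served as background. Named genes were those of the 26 lists, the 12 leading genes shared by both tissues in each direction, the 10 in each direction between tissues and the 10 most variable. These rankings took only genes with a symbol and left out those used by the rule. Some genes that these rules name are not reported here. Where a symbol had more than 1 gene identifier, the one with more UMIs was used. The 12 alternatives changed filters, thresholds or scaling. The entropy had 9 alternatives. They include thinning to 1000 UMIs and leaving out mitochondrial and ribosomal protein genes, neither of which is among the 12. Python 3.11.15, NumPy 2.4.6, SciPy 1.17.1, pandas 2.3.3, scikit-learn 1.9.0 and matplotlib 3.10.9 were used. Sequences and coordinates are not given, as the genome build used for the files was not analysed here.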

Additional observations from a re-analysis of the deposited data

How the results depend on the processing

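With 1 library per tissue, spread between animals cannot be measured, and the values rest on summed UMIs. No paired analysis was possible because the labels give no replicate numbers and no test was run. At a fold of 2 the calls against the other KRT14 barcodes were 12 higher and 201 lower in the reticulum, 23 and 290 in the omasum, and 5 and 184 in both. In the same setting the calls were 45 and 200, and 26 and 294, against cycling barcodes, 10 and 205, and 59 and 271, against DLK2-negative ones, and 99 and 53 between the tissues. With a minimum of 50 CPM they were 54 and 183, 72 and 280, and 36 and 146 against the other KRT14 barcodes, 91 and 265, and 72 and 371, against cycling barcodes, 37 and 137, and 102 and 256, against DLK2-negative ones, and 210 and 74 between the tissues. Scaling to the median gene gave 261 and 286 higher genes and 145 shared ones, and 475 and 361 against cycling barcodes. A pseudocount of 1 CPM gave 218 higher genes in the reticulum, 125 shared, and 123 against DLK2-negative barcodes of the reticulum. The last count was 131 with 5 or more KRT14 UMIs and 127 without barcodes with markers of other cell types, and with no minimum CPM 601 genes were lower there. The other 180 values were counts within 1.5 times the main count or entropy differences that moved by less than the SD among basal keratinocytes. The difference in mean entropy in the reticulum still ranged from -0.127 to 0.0373 bits, with its direction turned without mitochondrial and ribosomal protein genes. Of the list medians 274 moved out of the interval of their main value and 1382 did not, and of the values of named genes 296 moved, 9 turned and 919 did neither. Of the 78 and 351 genes called in both tissues, 55 and 327 remained with at least 2 UMIs of KRT15 and DLK2, 68 and 309 with 5 or more KRT14 UMIs, and 73 and 311 without barcodes with markers of other cell types.

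The direction turned for 5 named genes. With 5 or more KRT14 UMIs the log2 difference from the other KRT14 barcodes was 0.76 for SPARC in the reticulum, 0.21 for CXCL3 and 0.41 for CNFN in the omasum, 0.056 and 0.074 for VIM, and 0.49 and 0.23 for CLEC3B in the reticulum and omasum. Without barcodes with markers of other cell types it was 0.58 for SPARC in the reticulum and 0.025 for CXCL3 in the omasum. The cause was not tested.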
